A study of Oryza sativa with 6 samples.

Results

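The genes described here are the Aux/IAA repressors, the auxin response factors (ARFs) and the PIN auxin carriers of rice, read in shoot tips of the *Osrdr1* mutant and its sibling WT. Genes were taken by name, as IAA or ARF with a number or PIN with a number in the array annotation or the rice gene table, and the ARFs that are numbered 6, 8, 10, 12, 17, 18, 22 and 25 were left out. This gave 52 named genes (28 Aux/IAA, 15 ARF and 9 PIN), of which 43 (26 Aux/IAA, 12 ARF and 5 PIN) had a probe set of their own, out of 17905 genes measured in all. Among the 9 names without such a probe set were ARF5, ARF19, ARF21, IAA11, IAA29 and PIN5B.

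The mutant is homozygous for an insertion of the retrotransposon *Tos17* in *OsRDR1*, which codes for an RNA-dependent RNA polymerase, and WT is the line without the insertion that segregated from the same heterozygote. Both are of the variety Hitomebore, and the mutant is 1 insertion line. Shoot tips came from young seedlings, germinated in the dark in water (28 °C, 2 days) and moved to a greenhouse kept at 26 °C (16 h light, 8 h dark) until harvest some 48 h later. There were 3 biological replicates of *Osrdr1* and 3 of WT, each on 1 Affymetrix Rice Genome Array, and expression is given as the deposited log2 RMA signal, a normalised and summarised brightness of a probe set. *OsRDR1* itself was not matched to a probe set and was not read here.

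Auxin acts on transcription through these families. Aux/IAA proteins bind ARFs on the promoters of auxin-responsive genes and hold them silent with the help of TOPLESS co-repressors. Auxin brings Aux/IAA proteins to the receptor TIR1/AFB, by which they are marked for breakdown, and ARFs are then free to act. Many Aux/IAA genes are themselves rapidly induced by auxin, so that their transcripts are used as a readout of the response. PIN proteins carry auxin out of cells or, in the PIN5 type, across the membrane of the endoplasmic reticulum. Several ARFs are targets of small RNAs, among them rice ARF2, ARF3, ARF14 and ARF15, the ETTIN type, which are cut by siRNAs from *TAS3*.

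The transcripts of these families differed little between the genotypes. ARF1 was the only gene of the 43 that passed the test, and it was 1.71-fold higher in *Osrdr1* (limma, adjusted p = 0.0457). No gene of the 43 was called lower, and none of the 26 Aux/IAA genes or the 5 PIN genes was called in either direction with these settings. Among all 17905 genes, 4.57% were called (adjusted p under 0.05, over all probe sets), 3.44% as higher and 1.13% as lower in *Osrdr1*, so 1 of 43 is not above the background. Over all probe sets, with or without a gene name, the called share was 2.08%, 1.57% higher and 0.506% lower. The difference was within 0.2 on the log2 scale for 28 of the 43 genes (65.1%), against 63.3% of all genes. The 95% interval of the difference lay inside 2-fold in both directions for 40 of the 43, the exceptions being ARF1, IAA2 and PIN5A. In whole shoot tips, fewer cells of a type and less RNA per cell cannot be told apart.

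At looser levels the families were also near the background when both directions were counted together, but the split by direction was less even than over all genes. An adjusted p under 0.1 (limma) was reached by 3 of the 43 genes, ARF1, PIN5A and IAA2, against 9.97% of all genes. An unadjusted p under 0.05 was reached by 13 of the 43 genes (30.2%), against 27.7% of all genes, with 11 higher and 2 lower in *Osrdr1*, where 16.4% of all genes were higher and 11.3% lower. In 15 of the 43 (34.9%) the 3 values of one genotype all lay beyond those of the other, against 34.6% of all genes. Of these 15, *Osrdr1* was above WT in 14 and below it only in IAA26. Over all genes *Osrdr1* was above WT in 19.4% and below it in 15.2% (3476 and 2722 genes). The Aux/IAA genes leaned one way, with small steps. The mean was higher in *Osrdr1* for 23 of 26, with a median log2 difference of 0.14, against 51.0% and a median of 0.00 over all genes. The median of the Aux/IAA genes was 0.08 without WT replicate 3. ARF genes had a median of 0.05, with 7 of 12 higher in *Osrdr1*, and PIN genes had a median of -0.03, with 2 of 5 higher. These medians and counts are given as a description, without a test over the list.

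**Figure D1:**
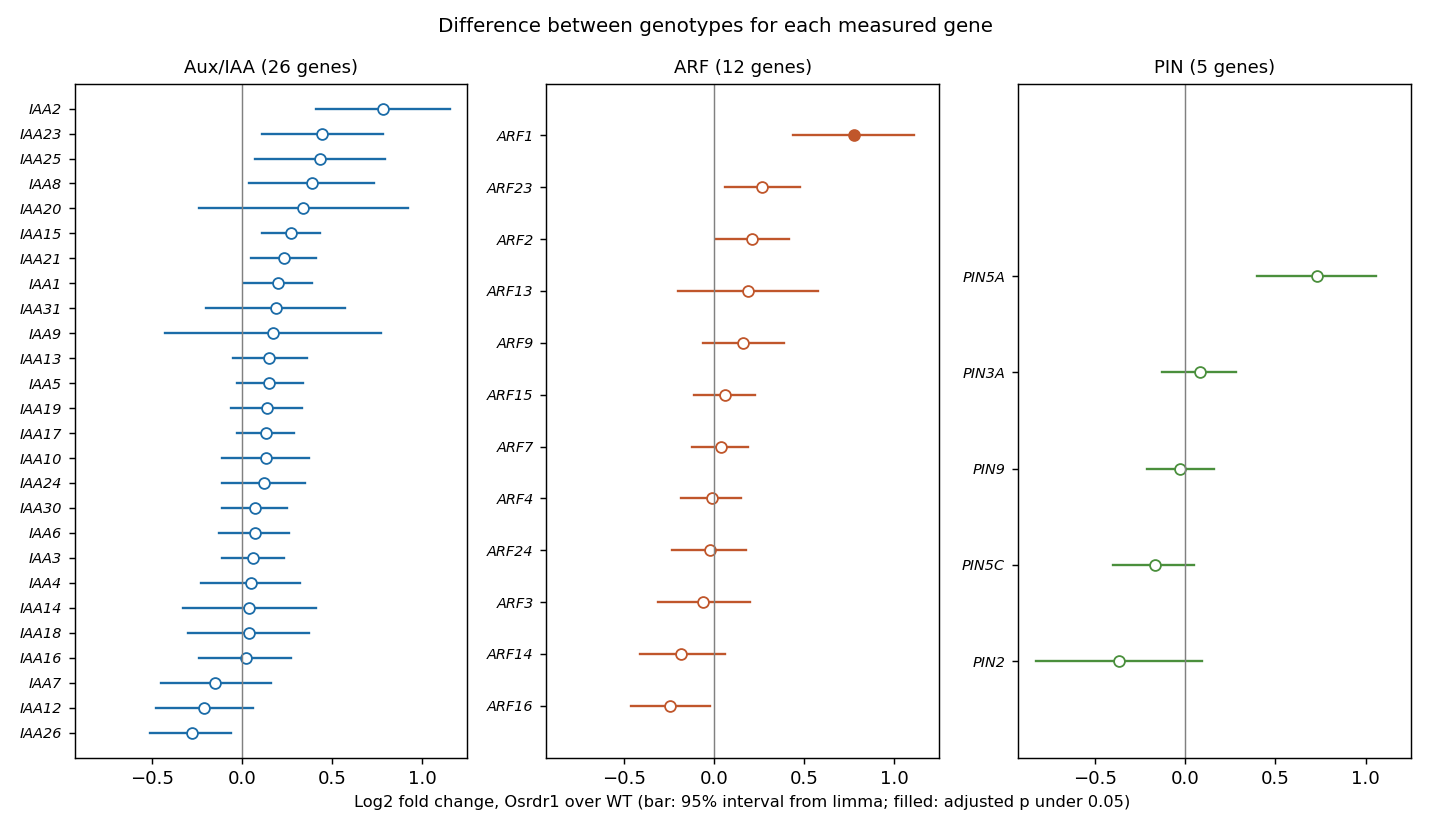
Difference between the genotypes (log2, *Osrdr1* minus WT) for each of the 43 genes, by family, with bars for the 95% interval from limma and a filled point where the adjusted p was under 0.05. Aux/IAA genes lie mostly a little to the right of 0, from -0.28 to 0.78, and ARF1 is the gene that was called.

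ARF1, IAA2 and PIN5A had the largest differences. ARF1, an auxin response factor, read 8.05, 7.86 and 8.13 (log2) in *Osrdr1*, against 7.32, 7.45 and 6.94 in WT. Its mean was 8.02 ± 0.14 in *Osrdr1* and 7.24 ± 0.26 in WT (SD, n = 3 each), a log2 difference of 0.78 with a standard error of 0.14 and a 95% interval of 0.44 to 1.11 (limma, adjusted p = 0.0457). Several names are shared in the gene table. It lists this locus, LOC4327785, as ARF1 and also as ARF16, a name that a different locus carries as well, and lists ARF1 for the gene called ARF23 here. The gene called ARF4 is also listed as ARF2, IAA4 as IAA20, IAA5 as IAA8, IAA13 as IAA1, PIN5A as PIN6, PIN5C as PIN4 and PIN5B, and PIN9 as PIN5, so the roles given here for genes of these names rest on the naming followed.

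IAA2, an Aux/IAA gene, read 8.6, 8.35 and 8.75 in *Osrdr1*, against 7.94, 7.95 and 7.48 in WT. Its log2 difference was 0.78, or 1.72-fold, with an interval of 0.41 to 1.15 that excludes 0, but it missed the threshold over all probe sets (limma, adjusted p = 0.0593). The 6 arrays stood in the same order for IAA2 as for ARF1, with *Osrdr1* replicate 3 the highest and WT replicate 3 the lowest.

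PIN5A, of the endoplasmic reticulum type of PIN carriers, read 4.99, 5.02 and 5.04 in *Osrdr1*, against 4.46, 4.46 and 3.96 in WT. The log2 difference was 0.73, or 1.66-fold, with an interval of 0.40 to 1.06 (limma, adjusted p = 0.0511). All 3 WT values of PIN5A were below the median of their array and all 3 *Osrdr1* values were just above it, so it is a dim probe set. The array medians ran from 4.87 to 4.96.

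These 3 genes lie close to the threshold on both sides. When *Osrdr1* replicate 1, 2 or 3 or WT replicate 1 or 2 was left out, the log2 difference of ARF1 was 0.76, 0.86, 0.72, 0.82 and 0.88, in that order, against 0.78 with all arrays. No gene of the 43 was called in these 5 fits (adjusted p of ARF1 0.18, 0.11, 0.191, 0.133 and 0.0822, limma), in which 0%, 0.281%, 0%, 0.00175% and 0.316% of all probe sets were called, against 2.08% with all arrays, so the lost calls are not particular to these genes. Without WT replicate 3, ARF1 (log2 difference 0.63, adjusted p = 0.0453) and PIN5A (0.56, adjusted p = 0.0255) were called higher and PIN2 (-0.62, adjusted p = 0.0273) was called lower, with 2.13% of all probe sets called. Under other settings on all 6 arrays, IAA2 and PIN5A were among the genes called in some, IAA15 in 2 and IAA17 in 1.

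**Figure D2:**
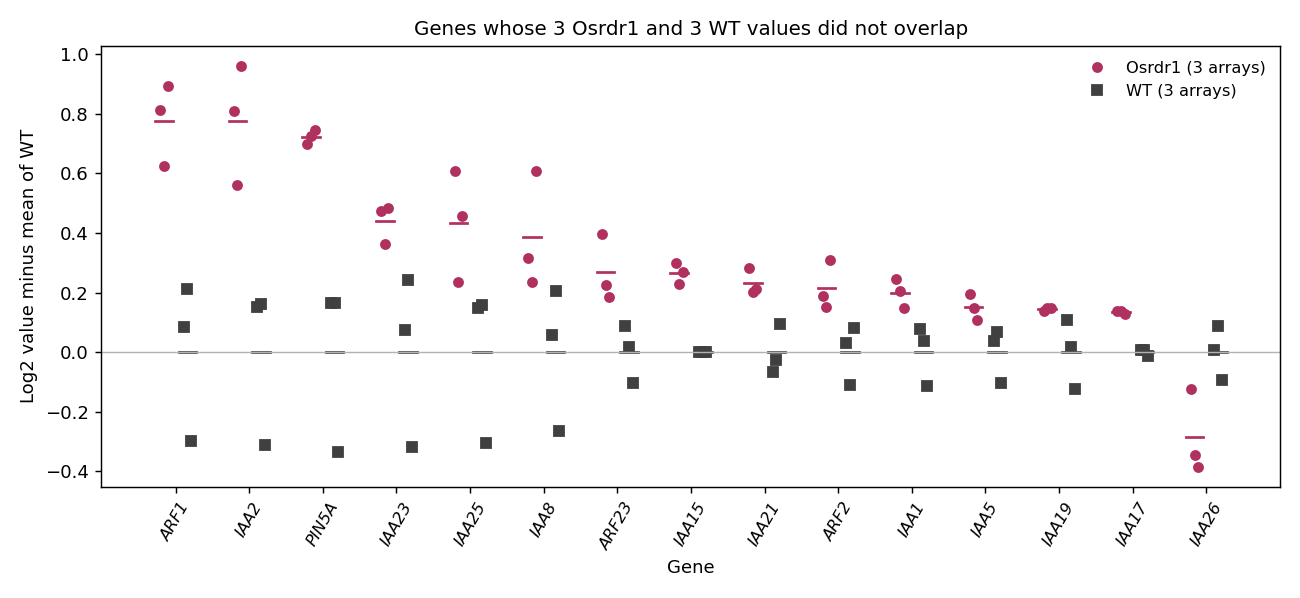
Log2 RMA signal minus the WT mean of the gene, on each array (points) with the genotype mean (short lines), for the 15 genes in which the genotypes did not overlap, *Osrdr1* left and WT right for each gene. ARF1, IAA2 and PIN5A have the widest gaps between means, 0.73 to 0.78, and for the other genes the *Osrdr1* mean lies within 0.5 of 0.

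Apart from IAA2, 7 Aux/IAA genes combined genotypes that did not overlap with an unadjusted p under 0.05, and each failed the adjustment. IAA23, which in rice roots maintains the quiescent centre, read 7.28, 7.17 and 7.29 in *Osrdr1*, against 6.88, 7.05 and 6.49 in WT (log2 difference 0.44, 95% interval 0.11 to 0.78, limma adjusted p = 0.195). IAA25 read 7.42, 7.05 and 7.27 in *Osrdr1*, against 6.96, 6.97 and 6.51 in WT (0.43, interval 0.07 to 0.79, adjusted p = 0.246). IAA8 read 6.0, 5.92 and 6.29 in *Osrdr1*, against 5.74, 5.89 and 5.42 in WT (0.39, interval 0.04 to 0.73, adjusted p = 0.286). In all 3 the lowest array was WT replicate 3, and for IAA8 the nearest values of the genotypes, 5.92 in *Osrdr1* and 5.89 in WT, almost touched.

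The next 3 were bright and tight, so that small steps separated the genotypes. IAA15 read 11.7, 11.63 and 11.67 in *Osrdr1*, against 11.4 on all 3 WT arrays (log2 difference 0.27, interval 0.11 to 0.43, limma adjusted p = 0.108). IAA21 read 11.93, 11.85 and 11.86 in *Osrdr1*, against 11.58, 11.62 and 11.74 in WT (0.23, interval 0.05 to 0.41, adjusted p = 0.217). IAA1 read 10.22, 10.18 and 10.12 in *Osrdr1*, against 10.05, 10.01 and 9.86 in WT (0.20, interval 0.01 to 0.39, adjusted p = 0.329). For these genes WT replicate 3 was not uniformly the lowest array, since in IAA21 it was the highest of WT.

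IAA26 was the only Aux/IAA gene with *Osrdr1* wholly below WT. It read 4.08, 3.86 and 3.82 in *Osrdr1*, against 4.21, 4.29 and 4.11 in WT (log2 difference -0.28, interval -0.51 to -0.06, limma adjusted p = 0.224). All 6 values were below the array medians, near the low end of the scale, which began at 2.97.

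IAA17, IAA5 and IAA19 were also separate between the genotypes, with smaller steps and no p under 0.05. IAA17 read 13.18, 13.18 and 13.17 in *Osrdr1*, against 13.05, 13.05 and 13.03 in WT, a difference of 0.13 (interval -0.03 to 0.29, limma adjusted p = 0.458), and its probe set is of a type that can bind more than 1 transcript. IAA5 read 10.86, 10.81 and 10.77 in *Osrdr1*, against 10.7, 10.73 and 10.56 in WT, a difference of 0.15 (adjusted p = 0.469). IAA19 differed by 0.14 (adjusted p = 0.545).

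Among the Aux/IAA genes that overlapped were some with a known role in rice. IAA13, a regulator of lateral root formation, had a log2 difference of 0.15 (limma adjusted p = 0.52), and IAA6, linked to drought tolerance, one of 0.07 (adjusted p = 0.801). IAA10, which the rice dwarf virus protein P2 binds, read 10.26, 9.97 and 10.03 in *Osrdr1*, against 9.95, 9.85 and 10.06 in WT (0.13, adjusted p = 0.655). The lowest difference among the overlapping genes was that of IAA12, -0.21 (interval -0.48 to 0.06, adjusted p = 0.489). IAA9 and IAA20 were the least precise. IAA9 read 5.82, 6.45 and 5.42 in *Osrdr1*, against 5.94, 5.8 and 5.43 in WT (0.17, interval -0.43 to 0.77), and IAA20 read 5.81, 5.92 and 6.04 in *Osrdr1*, against 5.83, 5.96 and 4.96 in WT (0.34, interval -0.24 to 0.92), a difference that came from WT replicate 3.

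IAA30 and IAA31 are neighbours on chromosome 12. IAA30 read 12.24, 12.37 and 12.24 in *Osrdr1*, against 12.26, 12.17 and 12.2 in WT (log2 difference 0.07, limma adjusted p = 0.761). IAA31 read 11.15, 11.24 and 11 in *Osrdr1*, against 11.15, 11.11 and 10.57 in WT (0.19, adjusted p = 0.697), with WT replicate 3 again the lowest. Neither of the neighbours was separated by genotype.

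Of the ARF genes other than ARF1, none passed the test. The ETTIN-type genes, known targets of *TAS3* siRNAs, went in different directions by small amounts. ARF2 read 9.46, 9.42 and 9.58 in *Osrdr1*, against 9.3, 9.16 and 9.35 in WT (log2 difference 0.21, 95% interval 0.01 to 0.42, limma adjusted p = 0.316). ARF14 read 7.3, 7.23 and 7.4 in *Osrdr1*, against 7.65, 7.48 and 7.33 in WT (-0.18, interval -0.41 to 0.06, adjusted p = 0.52). ARF3 differed by -0.06 (interval -0.31 to 0.20) and ARF15 by 0.06 (interval -0.11 to 0.23). Each of these intervals excludes a difference of 0.5 in either direction. That of the second probe set of ARF2 (0.32, interval 0.13 to 0.51) does not.

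ARF16, of the glutamine-rich type that activates transcription, read 8.24, 8.07 and 8.11 in *Osrdr1*, against 8.43, 8.48 and 8.24 in WT. Its log2 difference was -0.24 (interval -0.46 to -0.02, limma adjusted p = 0.297), and the genotypes met at 8.24. The other activator types ARF5, ARF19 and ARF21 were not read. ARF23 read 10.53, 10.36 and 10.32 in *Osrdr1*, against 10.22, 10.15 and 10.03 in WT (0.27, interval 0.06 to 0.48, adjusted p = 0.217), and the genotypes did not overlap. ARF9 read 9.19, 9.3 and 9.45 in *Osrdr1*, against 9.16, 9.05 and 9.23 in WT (0.16, adjusted p = 0.533). ARF4 (-0.01), ARF7 (0.04) and ARF24 (-0.02) were the flattest, and ARF13 (0.19, adjusted p = 0.698) was below the array median on all 6 arrays. The interval of ARF4 was -0.18 to 0.15 and that of ARF7 -0.12 to 0.19.

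Apart from PIN5A, the PIN genes read were those of the PIN2, PIN3, PIN5 and PIN9 types. PIN2, which in rice roots carries auxin for gravitropism, read 3.88, 3.96 and 4.01 in *Osrdr1*, against 4.53, 4.61 and 3.83 in WT (log2 difference -0.37, 95% interval -0.83 to 0.09, limma adjusted p = 0.48). WT replicates 1 and 2 were above all *Osrdr1* arrays and WT replicate 3 below them, and all 6 values were under the array medians. PIN3A, linked in rice to tillering and drought, read 7.8, 7.86 and 7.72 in *Osrdr1*, against 7.82, 7.61 and 7.72 in WT (0.08, interval -0.13 to 0.28, adjusted p = 0.775).

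PIN5C read 3.54, 3.72 and 3.72 in *Osrdr1*, against 3.82, 3.97 and 3.72 in WT (log2 difference -0.17, interval -0.40 to 0.05, limma adjusted p = 0.499). PIN9, a carrier of the monocots, read 4.28, 4.15 and 4.33 in *Osrdr1*, against 4.31, 4.27 and 4.25 in WT (-0.03, interval -0.21 to 0.16, adjusted p = 0.931). Both were below the array medians on all arrays, so PIN3A was the only PIN gene well within the range of bright signal, and its genotypes overlapped.

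WT replicate 3 stood apart for these families. It gave the lowest of the 6 values for 23 of the 43 genes (53.5%) and for 16 of the 26 Aux/IAA genes (61.5%), against 36.1% of all genes. Without it, 20 of the 26 Aux/IAA genes had a higher mean in *Osrdr1* in place of 23. The SD between replicates was lower in *Osrdr1*, with a median of 0.08 in *Osrdr1* and 0.12 in WT over the 43 genes, against 0.09 and 0.12 over all genes. The signal of 18S rRNA was 11.9, 12.47 and 12.36 in *Osrdr1* and 9.85, 10.19 and 13.06 in WT, so WT replicate 3 was also the highest array there. Whether this bears on the auxin genes was not tested.

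**Figure D3:**
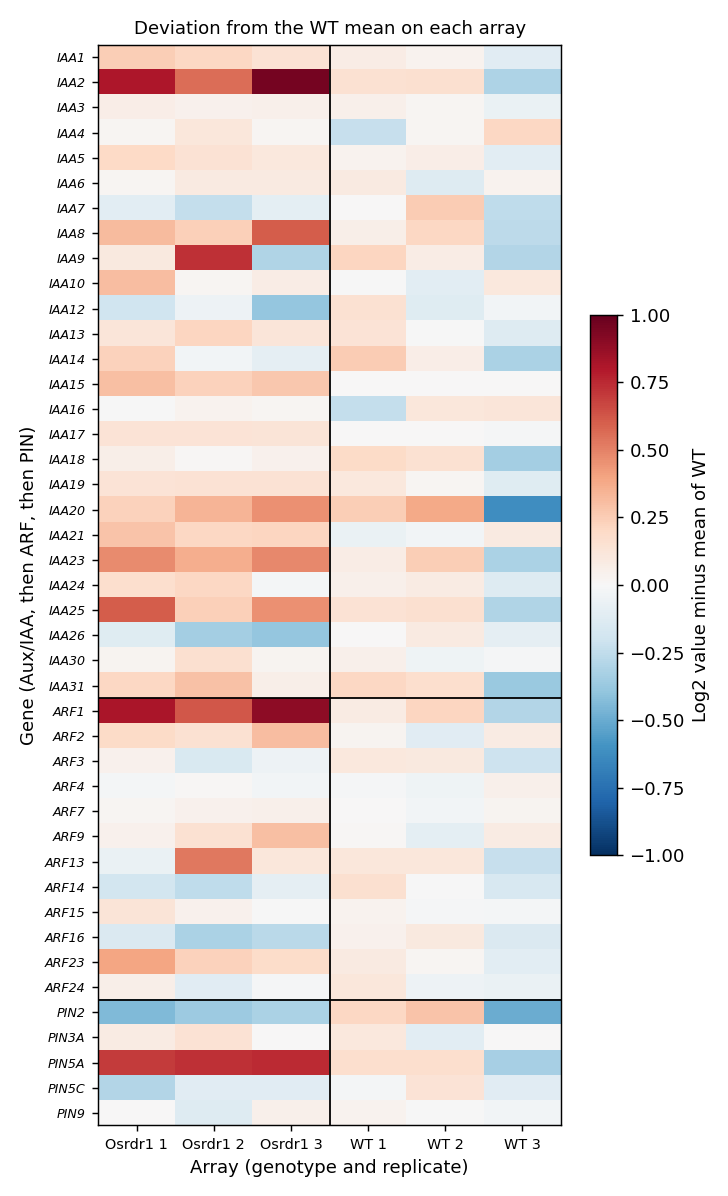
Log2 RMA signal minus the WT mean of the gene (colour, red above and blue below that mean) for the Aux/IAA, ARF and PIN genes from top to bottom, *Osrdr1* arrays left and WT arrays right. WT replicate 3 gave the lowest of the 6 values for 23 of the 43 genes, 16 of them Aux/IAA.

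The larger differences of the members lay on probe sets of lower brightness. Over all genes, the share of such differences was smallest in the dimmest range. Members with a mean of 9 or more on the log2 scale, 15 from 9 to 11 and 7 from 11 to 15, had no difference of 0.3 or more. Among the 14 with a mean of 5 to 9, 6 reached that size, against 28.0% of all genes in that range, and among the 7 below 5 it was 2, against 9.63%. Over all genes 22.6% of those from 9 to 11 and 15% of those from 11 to 15 reached it. The bright Aux/IAA genes IAA3 (log2 difference 0.06), IAA13 (0.15), IAA17 (0.13) and IAA30 (0.07) lay in the upper range. Levels of different probe sets are not compared as amounts of RNA.

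**Figure D4:**
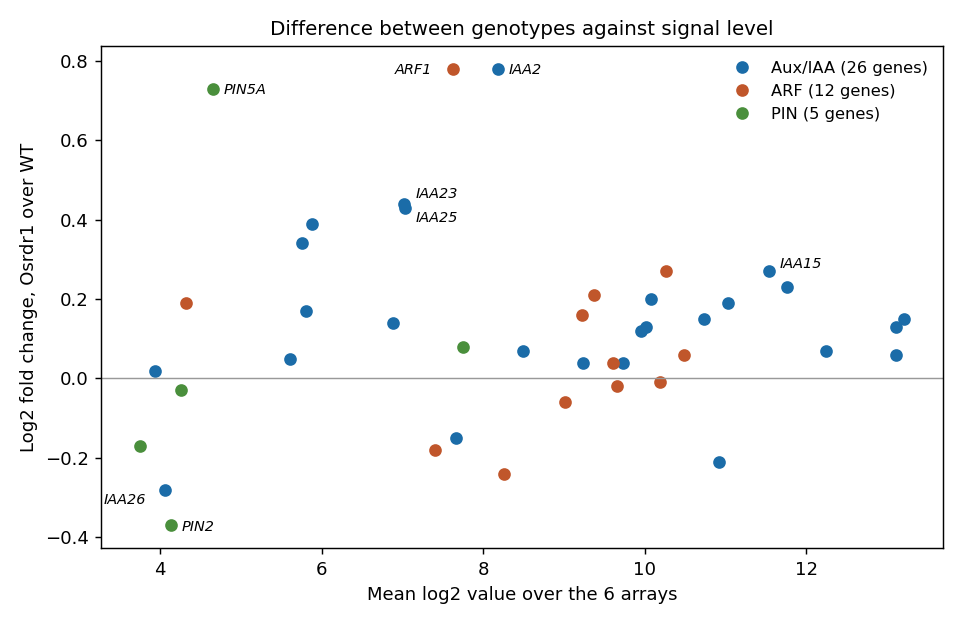
Log2 difference (*Osrdr1* minus WT) against the mean log2 signal over the 6 arrays, 1 point for each of the 43 genes, by family. Differences of 0.3 or more in size lie at means below 9, and the 22 genes at 9 or above stay between -0.21 and 0.27.

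For 10 of the 43 genes another probe set measured the same gene. The second probe sets of ARF2 (log2 difference 0.32, against 0.21 on the probe set used), ARF23 (0.30, against 0.27) and IAA1 (0.19, against 0.20) gave close values. IAA3 differed between its probe sets, since the bright one gave 0.06 and a dimmer one read 6.4, 6.23 and 6.23 in *Osrdr1*, against 6.04, 5.82 and 5.36 in WT, a difference of 0.55 (interval 0.15 to 0.94, limma adjusted p = 0.177). IAA4 gave 0.05 on its brightest probe set and 0.25 and 0.40 on the others. For IAA8 (0.39) and IAA23 (0.44), a dim probe set gave -0.07 and 0.08, and another of IAA23 gave 0.50 (adjusted p = 0.0869). None of these further probe sets passed the test.

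**Figure D5:**
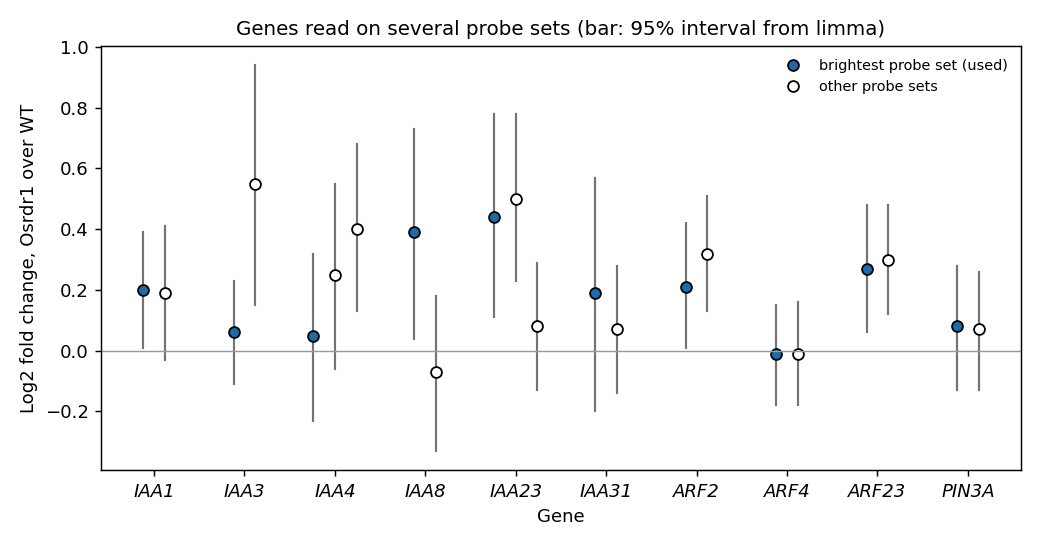
Log2 difference (*Osrdr1* minus WT) with the 95% interval on every probe set of the 10 genes that have more than 1, filled for the brightest probe set and open for the others. Values of a gene lie close together for ARF2, ARF4, ARF23, IAA1 and PIN3A, and apart for IAA3, IAA4, IAA8 and IAA23.

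The other genes of the auxin pathway, chosen by name, were called at a rate near the background. Of 33 listed, the left-out ARFs included, 30 were measured, 1 was called lower and none higher (3.33%, against 4.57% of all genes), and the median log2 difference was 0.03. The 30 held no TIR1/AFB receptor gene and, for transport, only PID and PID2, so auxin perception and uptake were not read. The one called was GH3-8, an enzyme that conjugates auxin to amino acids, which read 6.18, 6.12 and 5.97 in *Osrdr1*, against 7.35, 7.23 and 6.73 in WT (log2 difference -1.01, standard error 0.16, limma adjusted p = 0.0328). It was called in 8 of 14 alternative settings, among those that leave out 1 array only without WT replicate 3, and its difference stayed between -1.20 and -0.89. GH3-4, of the same enzyme family, read 8.74, 9.17 and 9.2 in *Osrdr1*, against 8.46, 8.06 and 8.39 in WT (0.73, adjusted p = 0.068).

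By role, the other 28 genes gave no call. Of all 30, the genotypes did not overlap in 9 (30.0%, against 34.6% of all genes), with *Osrdr1* above WT in 5 and below it in 4. The synthesis genes YUCCA1 (log2 difference -0.06) and FIB (-0.10), the auxin oxidase gene DAO (0.21), the kinase gene PID (-0.09), whose protein directs PIN carriers, and the co-repressor genes TPR2 (-0.11) and TPR3 (-0.06) all had overlapping genotypes. ILL6, which releases auxin from conjugates, gave 0.45 (limma adjusted p = 0.184). The 5 measured ARFs that the naming rule left out, which belong to the classes cut by miR160 and miR167, ranged from -0.23 for ARF12 to 0.26 for ARF10, and none was called.

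Marker genes of other tissues and states were read on the same arrays. Over all genes 51.0% had a higher mean in *Osrdr1*, 3.44% were called higher and 1.13% lower. The genes of leaf greening, 15 of 17 measured, all had a higher mean in *Osrdr1*, 3 of them called. Their summed linear signal was 79295 to 81999 in *Osrdr1* and 59880 to 66611 in WT. Knotted-type homeobox genes, several of which mark the shoot meristem, were measured for 6 of 8, with 1 called higher (OSH45, log2 difference 0.67, limma adjusted p = 0.0211), 1 called lower (OSH71, -2.43, adjusted p = 0.0457) and a median of -0.47. Only OSH45 of the 6 had a higher mean in *Osrdr1*. OSH6 read 5.85, 5.72 and 5.57 in *Osrdr1*, against 6.45, 6.92 and 6.12 in WT, without overlap (-0.78, limma adjusted p = 0.101). The summed signal of all 6 overlapped, at 772 to 803 in *Osrdr1* and 700 to 1150 in WT. OSH45 was its brightest contributor and went against the others, so the sum does not show how the others differed. OSH1 read 6.31, 4.62 and 3.71 in *Osrdr1*, against 7.63, 8.28 and 6.15 in WT, which overlap (adjusted p = 0.162). Low-oxygen genes summed to 3939 to 4114 in *Osrdr1* and 4374 to 6180 in WT, with 4 of 5 measured and none called. The sum was mostly that of PDC2 (-0.30, limma adjusted p = 0.168), while PDC3 gave 0.01. The highest WT sum was on WT replicate 2. PDC1 read 8.55 there, against 4.13 on both other WT arrays, and Adh2 read 9.36, against 7.4 and 6.26. Root genes (5 of 6 measured) had a median difference of -0.02, and their sum of 788 to 807 in *Osrdr1* and 505 to 523 in WT was mostly that of Lsi1, the only one called (0.80, adjusted p = 0.00853), while WOX11 gave -0.69 (adjusted p = 0.18) and the other 3 lay between -0.03 and 0.06. Seed storage genes (7 of 8 measured, 1 called higher) had a median of -0.01 and overlapping sums of 218 to 248 in *Osrdr1* and 165 to 237 in WT. The part of tissue makeup in the differences of the auxin genes was not tested.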

How the data were processed

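Total RNA from shoot tips was hybridised to 6 Affymetrix Rice Genome Arrays, 3 *Osrdr1* and 3 WT. The authors deposited log2 values of 57381 probe sets. The submitters' notes name RMA and Affymetrix Expression Console, without versions, so the values were taken as already background-corrected, quantile-normalised and summarised. The precision is what 3 arrays of each genotype allow. The p-values weigh the genotype difference against the spread between these replicates, which limma estimates with help from all probe sets.

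Control probe sets (123) were left out. The remaining 57258 were analysed with genotype as the only term in limma (version 3.58.1, R 4.3.3), and p-values were adjusted over all of them (Benjamini-Hochberg). The threshold was an adjusted p of 0.05, without a minimum fold or filter. In the array annotation and a rice gene table (assembly ASM3414082v1, for names and neighbours only), 22436 probe sets had 1 gene, 95 had several and 34727 had none. Each of 17905 genes was read on its brightest probe set. Types that can bind several transcripts (_s_at, _x_at, _a_at) were used for IAA17, IAA4, IAA23, PIN3A, ARF2 and ARF23. The fit was tested on simulated data.

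The genes and lists were chosen with earlier results of these data known. Values on every array were given for genes called, for those separated by genotype with an unadjusted p under 0.05, for every PIN gene, and for the largest differences and smallest p in each family. Beyond this rule, IAA9, IAA10, IAA20, IAA30 and IAA31 were picked after their values were seen. Alternatives were a filter on dim probe sets, further normalisation, other variance models, the replicate block, other choices of probe set, and each array left out. The planned search of sequences was not run, since no protein or promoter sequences of rice were at hand.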

Additional observations from a re-analysis of the deposited data

How the results depend on the processing

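With all 6 arrays 1 of the 43 genes was called higher, none lower, and 1 other auxin gene was called. The count called higher was 2 without dim probe sets (ARF1 and IAA2, with 6.92% of all probe sets called, against 2.08% in the fit reported), 2 with arrays centred on their medians (ARF1 and PIN5A, 2.13%), 2 after quantile normalisation again (ARF1 and IAA2, 2.78%), 5 with a mean-variance trend (ARF1, IAA2, IAA15, IAA17 and PIN5A, 4.29%), 4 with 1 probe set per gene in the fit (ARF1, IAA2, IAA15 and PIN5A, 11.5%), 3 at an adjusted p under 0.1, and 0 for an unadjusted p with a 2-fold minimum. Other auxin genes called were 2 without dim probe sets, with the trend and with 1 probe set per gene. Leaving out 1 array gave 0 to 2 members called higher, 0 to 1 lower (PIN2, without WT replicate 3), 0 to 1 other auxin genes, and a median member difference of 0.07 (without *Osrdr1* replicate 2) to 0.13, against 0.12.

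Replicate numbers did not pair the samples (correlations of same-numbered deviations 0.14, -0.15 and -0.27). With the replicate block, 0 members and 0 other auxin genes were called by limma, 0 of all probe sets passed, 8 members had an unadjusted p under 0.05, and ARF1 had an adjusted p of 0.152.

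ARF1 kept a log2 difference of 0.63 to 0.88 over 14 alternatives and was called in 8. Some differences near 0 changed sign. With 1 array left out, they ran from -0.04 to 0.01 for ARF4, from -0.06 to 0.04 for ARF24, from -0.07 to 0.15 for IAA4, from -0.11 to 0.41 for IAA9, from -0.12 to 0.16 for IAA14, from -0.1 to 0.08 for IAA16, from -0.13 to 0.13 for IAA18, from -0.0012 to 0.29 for IAA31 and from -0.06 to 0.03 for PIN9. With arrays centred they were ARF4 0.02, ARF24 0.01 and PIN9 0.01. After quantile normalisation again they were ARF7 -0.01, IAA14 -0.02 and IAA18 -0.01. The arrays whose loss turned a sign were WT replicate 3 (ARF4, IAA14, IAA18, IAA31), WT replicate 1 (ARF24, IAA4, IAA16), *Osrdr1* replicate 2 (ARF24, IAA9, PIN9) and *Osrdr1* replicate 1 (IAA14). The causes were not tested. Signal near background limits IAA16, IAA26, ARF13, PIN2, PIN5C and PIN9, which were below the array median on all 6 arrays.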

Other observations

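A probe set that the annotation gives to both IAA10 and OSH15, a knotted-type homeobox gene, was not used above and was picked out after its values were seen. It read 4.84, 4.4 and 4.36 (log2) in *Osrdr1*, against 5.96, 7.5 and 5.14 in WT, a log2 difference of -1.67 (standard error 0.53, 95% interval -2.91 to -0.43, limma adjusted p = 0.191). The genotypes did not overlap on it, whereas on the probe set of IAA10 alone they did, with a difference of 0.13. Which of the transcripts it reads cannot be told from these values.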
